A study of Mus musculus with 22 samples.

Results

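The transcription factor NRF2 (gene Nfe2l2) and 9 antioxidant enzymes that are counted among its classical targets were followed in mouse spinal cord: Nqo1, Hmox1, Gclc, Gclm, Txnrd1, Srxn1, Gpx1, Prdx1 and Cat. The genes were chosen by name, with earlier results of these data known, and make up 10 of the 21995 genes in the RNA sequencing count table. All 10 had enough counts to be tested in each comparison. Whole spinal cords of C57BL/6 mice were used throughout. The Young group held 8 wild type mice aged 3 to 4 months and the Old group 8 wild type mice aged 18 to 24 months. The study's methods give the mice of both these groups as male. The G93a group held 3 mice aged 5 to 6 months that carry a mutant human SOD1 transgene, a model of amyotrophic lateral sclerosis (ALS) with motor neuron loss and muscle wasting, and its wild type controls (WT) were 3 mice of the same age. The study describes the G93a line as high copy and the sampled mice as symptomatic. The methods give the G93a and WT groups as mixed in sex, in the same proportion, but the labels do not give the sex of a library, so sex could not enter the fit. No group received a drug treatment according to the labels. The aging libraries were made with the Roche RNA KAPA Hyperprep kit and the ALS libraries with Illumina TruSeq, so the kit and the experiment cannot be told apart.

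NRF2 is held at low protein levels by KEAP1, which presents it to a CUL3 and RBX1 ubiquitin ligase. When reactive cysteines of KEAP1 are modified by oxidants or electrophiles, NRF2 escapes degradation, enters the nucleus, pairs with a small MAF protein (MAFF, MAFG or MAFK) and binds antioxidant response elements in its target genes, where BACH1 competes as a repressor. Much of this regulation acts on the protein, so an mRNA level of Nfe2l2 is not a measure of NRF2 activity. In the central nervous system the pathway is best known from astrocytes, which supply glutathione precursors to neurons.

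Promoter windows were searched for the core of the antioxidant response element, TGACNNNGC, and for the related AP-1 motif TGACTCA, on both strands. The windows are from RefSeq on GRCm38.p6 and reach from 250 bases before a start site to 50 bases after it. Of the 10 genes, 8 had a window, all but Hmox1 and Gclc. The core was present in 5 of these 8 (Nfe2l2, Gclm, Txnrd1, Srxn1 and Prdx1), against 13.99% of the 27025 genes with windows. The AP-1 motif was present in 2 of the 8 (Srxn1 and Prdx1), against 5.95% of those genes. These matches are a description of letters, not of occupied sites. The stretches that hold them are shown because the genes with a match include ones that were called below and ones that were not. Each is written 5′ to 3′ on the strand of its gene, with the match in capitals.
Nfe2l2, core at chr2:75704895-75704903, minus strand: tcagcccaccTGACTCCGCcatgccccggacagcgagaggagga
Prdx1, core at chr4:116685466-116685474, plus strand: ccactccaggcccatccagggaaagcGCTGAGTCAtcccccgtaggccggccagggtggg
Gclm, core at chr3:122245423-122245431, plus strand: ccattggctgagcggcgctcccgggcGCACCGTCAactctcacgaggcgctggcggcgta
Txnrd1, core at chr10:82859114-82859122, plus strand: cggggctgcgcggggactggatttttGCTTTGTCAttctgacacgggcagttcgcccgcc
Srxn1, AP-1 motif at chr2:152105479-152105485, plus strand: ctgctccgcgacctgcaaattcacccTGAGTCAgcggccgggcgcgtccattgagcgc
The core lies on the gene's own strand in Nfe2l2 and on the opposite strand in Prdx1, Gclm and Txnrd1. Txnrd1 had 3 windows, and the core was found only in window 2 by position, which lies inside the annotated gene. In Prdx1 the last letters of the core match are also an AP-1 match, so these are not separate sites. Prdx1 has another AP-1 match, on its own strand at chr4:116685362-116685368, which lies apart from the core and is not shown. Another AP-1 match of Srxn1, at chr2:152105422-152105428, is not shown either. The core match of Srxn1, GCTAGGTCA at chr2:152105552-152105560, lies just after the start site.

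The libraries held 5078092 to 9358055 counts in Young, 5664869 to 9145600 in Old, 10693060 to 13219797 in WT and 9675610 to 11872431 in G93a. The 10 genes had between 24 counts (Hmox1) and 3396 counts (Prdx1) in a library, above the 3 counts taken as the limit of detection. Libraries are numbered within each group in the order of the table, as names only. Old library 6 stood apart: 13.2% of its counts were mitochondrial mRNA, against 5.24% to 9.18% in the other Old libraries. Among the G93a libraries, library 2 had the lowest value for each of the 6 genes that rose, described below. The calls are therefore also given without Old library 6 or G93a library 2, and the changes without them for some of the genes. As a check of the tissue label, 6 Hox genes of the caudal axis summed to between 136 and 250 CPM (counts per 1000000 counts of the scaled library) in every library, while Tbr1 and Gabra6, markers of forebrain and cerebellum, had at most 3 counts in any library.

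In old spinal cord 5 of the 10 genes rose and none fell. Hmox1, which makes heme oxygenase 1, rose 2.05-fold, and Gpx1, the cytosolic glutathione peroxidase, rose 1.58-fold. Nqo1, Nfe2l2 and Prdx1 rose by 1.33-, 1.27- and 1.17-fold. By edgeR's quasi-likelihood test, with Benjamini-Hochberg adjustment over the 13647 genes tested, 13.5% of all genes rose at an adjusted p under 0.05 and 12.9% fell. Hmox1 alone among the 10 also passed a log2 fold change of 1, as 2.18% of all genes did upward and 0.044% downward. On the log2 scale the 10 genes had a median change of 0.18, beside -0.0027 for all genes tested. Every Old library lay above every Young library for Hmox1 and Gpx1, a separation seen upward in 3.66% of all genes and downward in 1.66%. Summed markers of microglia and astrocytes were also higher in every Old library, the astrocyte sum largely through Gfap, as given below. In bulk tissue more cells of a type and more RNA per cell cannot be told apart, and the part of cell composition in the values of the 10 genes was not tested. The same 5 genes were called without Old library 6. At an unadjusted p under 0.05 by the same edgeR test, Txnrd1 was also higher (edgeR unadjusted p = 0.0482) and none was lower. DESeq2 called the same 5.

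In the spinal cord of G93a mice 6 of the 10 genes rose and none fell. These were the same 5 and Srxn1. Hmox1 rose 9.36-fold, Nfe2l2 itself 2.44-fold and Gpx1 2.3-fold, while Nqo1 rose 1.99-fold, Prdx1 1.57-fold and Srxn1 1.22-fold. Of the 14386 genes tested, 18.4% rose and 15.5% fell by the same test. Hmox1, Nfe2l2 and Gpx1 passed a log2 fold change of 1, as 8.5% of all genes did upward and 1.2% downward, and Nqo1 lay just under it. All 3 G93a libraries lay above all 3 WT libraries for 8 of the 10 genes, and below them for Gclc. With 3 libraries a group such separation was common, at 25.7% of all genes upward and 24.7% downward. On the log2 scale the median change was 0.47 for the 10 genes and 0.0031 for all genes. At an unadjusted p under 0.05 Gclc was lower and Cat higher by the edgeR test, and DESeq2 called the same 6 genes, all higher. Without G93a library 2, 8 genes rose (Cat and Txnrd1 joined the 6) and Gclc fell. That library was picked out because it was lowest for the genes that rose, so their larger changes without it follow from the choice. Without G93a library 1 or 3, 5 genes were called, and Cat, Txnrd1, Gclc and Srxn1 were not among them. The study describes the samples as individual mice, so the p-values measure the spread between mice.

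**Figure D1:**
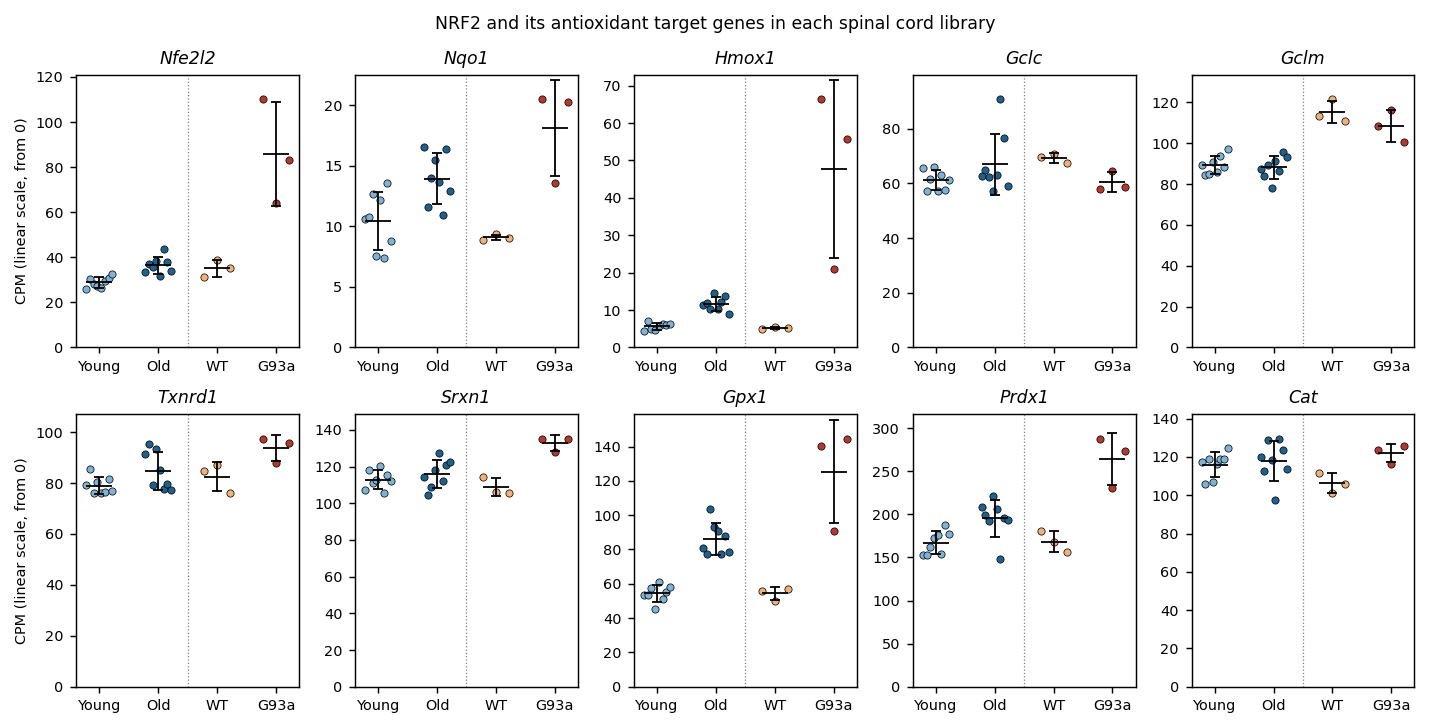
CPM of each of the 10 genes in every library of Young, Old, WT and G93a mice, 1 panel per gene, on linear axes from 0, with 1 point per library, a bar at the group mean and whiskers of 1 SD (n = 8, 8, 3 and 3). Hmox1 rose by the largest ratio of the 10 in G93a, with WT libraries at 4.84 to 5.39 CPM and G93a libraries at 21.0 to 66.3 CPM.

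Nfe2l2 (ENSMUSG00000015839, GRCm38 chr2:75675513-75704641) makes NRF2 itself. Its level ran from 25.95 through a median of 28.7 to 32.7 CPM in Young libraries and from 31.8 through 36.4 to 43.8 CPM in Old. In this comparison 7 of the 8 Old libraries exceeded every Young library. The rise was 0.34 on the log2 scale (SE 0.07, edgeR adjusted p = 0.000601), and 0.30 without Old library 6, which had the highest value. In WT libraries 1 to 3 it measured 31.2, 38.9 and 35.3 CPM, and in G93a libraries 1 to 3 it measured 110.1, 64.1 and 83.0 CPM. The groups did not overlap, and the spread within G93a was wider than in WT. This was a log2 fold change of 1.29 (SE 0.18, edgeR adjusted p = 0.00155).

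Hmox1 (ENSMUSG00000005413, chr8:75093621-75100589) makes the inducible heme oxygenase, which breaks heme down to biliverdin, carbon monoxide and iron. Young libraries ran from 4.45 through 5.85 to 6.94 CPM and Old libraries from 8.92 through 11.6 to 14.5 CPM. The means were 5.65 ± 0.884 and 11.6 ± 1.87 CPM (SD, n = 8 each), and no Old library reached down to a Young one. The log2 fold change was 1.04 (SE 0.12, edgeR adjusted p = 6.1e-07). WT libraries measured 4.84, 5.39 and 5.07 CPM and G93a libraries 66.3, 21.0 and 55.8 CPM. Library 2 was thus well under the other G93a libraries and still above every WT library. The log2 fold change was 3.23 (SE 0.39, 95% interval 2.34 to 4.12, edgeR adjusted p = 0.0007). Without library 2 it was 3.58.

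Nqo1 (ENSMUSG00000003849, chr8:107388225-107403206) makes a quinone reductase and is the usual reporter gene of the pathway. Its Young libraries spanned 7.35 to 13.6 CPM around a median of 10.7, and its Old libraries 10.95 to 16.6 CPM around 13.9. Only 5 of the 8 Old libraries exceeded every Young one. The log2 fold change was 0.41 (SE 0.13, edgeR adjusted p = 0.0167). In the ALS experiment WT libraries stood at 8.92, 9.34 and 9.07 CPM and G93a libraries at 20.5, 13.6 and 20.3 CPM, with no overlap. This was a log2 fold change of 0.996 (SE 0.18, edgeR adjusted p = 0.00436), and 1.17 without G93a library 2.

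Gpx1 (ENSMUSG00000063856, chr9:108338903-108340343) reduces hydrogen peroxide with glutathione. It ran from 45.4 through 54.4 to 60.8 CPM in Young and from 77.4 through 84.4 to 104 CPM in Old libraries. All Old libraries were higher, with a log2 fold change of 0.66 (SE 0.07, edgeR adjusted p = 6.59e-08), the smallest adjusted p of the 10 genes. WT libraries gave 55.9, 50.2 and 57.2 CPM and G93a libraries 140.5, 90.8 and 145 CPM. The G93a libraries were all higher, library 2 least so. The log2 fold change was 1.20 (SE 0.17, edgeR adjusted p = 0.00134), and 1.39 without that library.

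Prdx1 (ENSMUSG00000028691, chr4:116685544-116700822) is a cytosolic peroxiredoxin that scavenges peroxide and is recycled by thioredoxin. Young libraries ran from 153 through 168 to 187 CPM and Old libraries from 148 through 197 to 221 CPM. Here 7 Old libraries exceeded every Young library and the other, Old library 6, lay below every one. The rise was 0.23 on the log2 scale (SE 0.06, edgeR adjusted p = 0.00926), and 0.28 without that library. WT libraries had 181, 167 and 157 CPM and G93a libraries 288, 230.2 and 274 CPM, and the groups were apart. The rise was 0.65 on the log2 scale (SE 0.11, edgeR adjusted p = 0.00327).

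Srxn1 (ENSMUSG00000032802, chr2:152105516-152111376) makes sulfiredoxin, which repairs overoxidized peroxiredoxins. Its aging groups overlapped, at 105 to 120.1 CPM in Young and 104 to 128 CPM in Old, and the log2 difference of 0.04 did not pass (95% interval -0.05 to 0.13, edgeR adjusted p = 0.546). WT libraries measured 114, 106 and 105.5 CPM and G93a libraries 135, 128 and 135 CPM. The groups did not overlap, and the log2 fold change of 0.29 passed (SE 0.08, edgeR adjusted p = 0.0232). This call was lost in 4 of the 6 fits that left out 1 library, with adjusted p values up to 0.0961 by edgeR.

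Txnrd1 (ENSMUSG00000020250, chr10:82833951-82897712), the cytosolic thioredoxin reductase that keeps thioredoxin reduced, was called in neither comparison. It lay at 75.9 to 85.5 CPM in Young and 77.3 to 95.3 CPM in Old, a log2 difference of 0.11 (95% interval 0.0009 to 0.21, edgeR adjusted p = 0.129). WT libraries had 84.6, 87.1 and 76.0 CPM and G93a libraries 97.4, 88.02 and 95.9 CPM, a log2 difference of 0.19 (95% interval -0.02 to 0.39, edgeR adjusted p = 0.138). The ALS groups just failed to overlap. Without G93a library 2 the difference was 0.23 and passed (edgeR adjusted p = 0.0435). It did not pass without G93a library 1 or 3 (edgeR adjusted p = 0.276 and 0.282).

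Cat (ENSMUSG00000027187, chr2:103453849-103485160) makes catalase, the peroxisomal enzyme that splits hydrogen peroxide. Young libraries at 106 to 125 CPM and Old libraries at 97.3 to 129.6 CPM overlapped throughout, with a log2 difference of 0.02 (95% interval -0.09 to 0.13, edgeR adjusted p = 0.79). WT libraries measured 112, 101 and 106 CPM and G93a libraries 124, 117 and 126 CPM. That was a log2 difference of 0.20 without overlap that did not pass (edgeR adjusted p = 0.0922). Without G93a library 2 it passed at 0.23 (edgeR adjusted p = 0.0331), but not without library 1 or 3 (edgeR adjusted p = 0.175 and 0.228).

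Gclc (ENSMUSG00000032350, chr9:77754535-77794485) and Gclm (ENSMUSG00000028124, chr3:122245557-122270732) make the catalytic and the modifier subunit of glutamate cysteine ligase, the rate-limiting enzyme of glutathione synthesis. Neither was called. Gclc lay at 57.0 to 66.0 CPM in Young and 57.2 to 90.7 CPM in Old libraries, where the top value was that of Old library 6. Its log2 difference was 0.13 (95% interval -0.03 to 0.29, edgeR adjusted p = 0.211), and 0.06 without that library. Gclm lay at 84.2 to 97.3 CPM in Young and 77.9 to 95.9 CPM in Old, a log2 difference of -0.02 (95% interval -0.12 to 0.07, edgeR adjusted p = 0.77). These values of the 2 subunits overlapped between the ages. In the ALS experiment Gclc measured 69.7, 70.7 and 67.4 CPM in WT and 58.0, 64.6 and 58.7 CPM in G93a, lower in every G93a library, with a log2 difference of -0.20 (SE 0.08, edgeR adjusted p = 0.0929). This passed without G93a library 2, at -0.24 (edgeR adjusted p = 0.0264), but not without library 1 or 3 (edgeR adjusted p = 0.25 and 0.243). Gclm measured 113, 121 and 111 CPM in WT and 108, 116 and 101 CPM in G93a, a log2 difference of -0.09 (95% interval -0.29 to 0.11, edgeR adjusted p = 0.465). The annotation places exons of other genes over 296 and 244 bases of Gclm, and whether the counting used strand is not given in the sources used here.

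**Figure D2:**
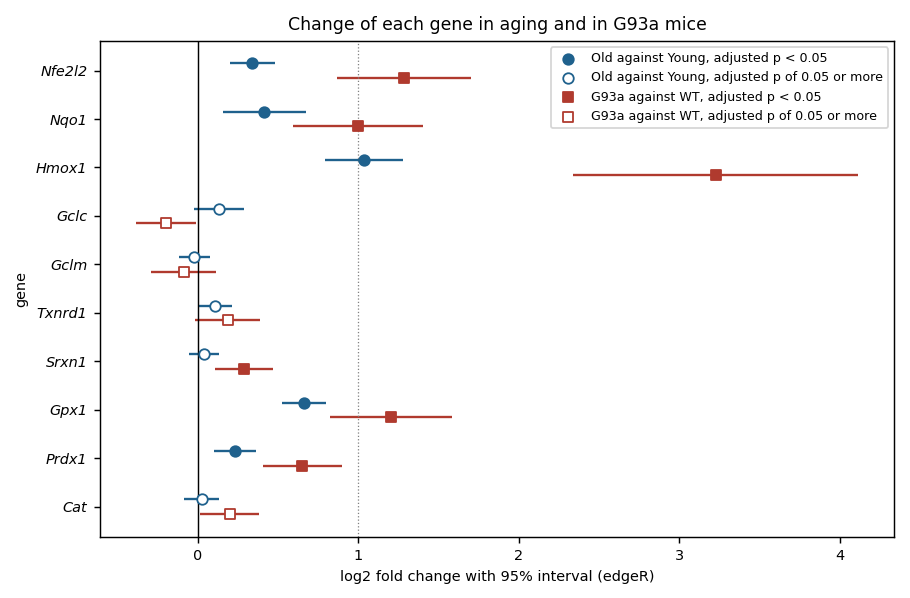
Log2 fold change of each of the 10 genes with its 95% interval, for Old against Young and for G93a against WT. Hmox1 had the highest value in both comparisons (1.04 and 3.23), while the intervals of Gclm include 0 in both.

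Per unit of transcript length the order of the genes differed from the order of change. Prdx1 was the most abundant of the 10 in every group, with a median of 148 FPKM in Young, 175 in Old, 173 in WT and 273 in G93a, and Gpx1 came next, with 71.1, 109.5, 72.6 and 182 FPKM. Gclm, Cat and Srxn1 lay close together at medians of 36.1 to 47.0 FPKM over the 4 groups, and no order among them was read. Hmox1 was the least abundant in Young, Old and WT, at medians of 3.67, 6.95 and 3.06 FPKM. In G93a its median was 35.2 FPKM, between those of Gclm at 36.1 and Nfe2l2 at 33.1 FPKM, which its libraries overlapped.

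Whether the genes changed more in G93a mice than in old mice was tested as the difference of the 2 log2 fold changes in 1 fit of all 22 libraries. The difference was called for 5 of the 10 genes, each larger in G93a, while 11.6% of the 14502 genes tested differed in that direction and 14.2% in the other. It was 2.16 for Hmox1 (SE 0.32), 0.92 for Nfe2l2 (SE 0.16), 0.51 for Gpx1 (SE 0.15), 0.39 for Prdx1 (SE 0.13) and 0.22 for Srxn1 (SE 0.08). Their adjusted p values by edgeR were 4e-05, 0.000193, 0.0144, 0.0216 and 0.0495. For Nqo1 the difference of 0.55 did not pass (edgeR adjusted p = 0.0793), nor did that of -0.36 for Gclc (edgeR adjusted p = 0.0519). Hmox1 and Nfe2l2 were called in each fit that left out a G93a or WT library. Leaving out G93a library 1 or 3 left 2 genes called, and leaving out WT library 2 or 3 left 3. Age, kit and sex also differ between the experiments and cannot be told apart from the disease model in this difference.

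In old cord 4 of 14 regulators and partners of NRF2 rose (28.6%, beside 13.5% of all genes) and 2 fell (14.3%, beside 12.9%). Maff and Mafk, small MAF partners, rose by 1.04 and 0.50 on the log2 scale (edgeR adjusted p = 0.000201 and 0.000191). Keap1, the inhibitor, rose by 0.22 with no overlap of the groups, at 50.8 to 59.2 CPM in Young and 60.6 to 68.8 CPM in Old (edgeR adjusted p = 0.00118), and Sqstm1, the autophagy receptor p62 that binds KEAP1, by 0.22 (edgeR adjusted p = 0.000561). Gsk3b, a kinase that marks NRF2 for a second route of degradation, fell by 0.15 (edgeR adjusted p = 0.00756). Cul3, of the ligase to which KEAP1 presents NRF2, fell by 0.17, just under the threshold (edgeR adjusted p = 0.0483). In G93a cord 3 rose (21.4%, beside 18.4% of all genes) and 2 fell (14.3%, beside 15.5%), shares near those of all genes. Maff and Mafk rose by 2.37 and 1.35 (edgeR adjusted p = 0.00261 and 0.00797) and Bach1, the competing repressor, by 0.39 (edgeR adjusted p = 0.0166). Gsk3b and Btrc, which acts with it in that route, fell by 0.53 and 0.47. Keap1 differed by 0.05 (SE 0.09, edgeR adjusted p = 0.724), and Bach1 in old cord by 0.04 (SE 0.07, edgeR adjusted p = 0.712).

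Over the lists of 106 other genes of glutathione, thioredoxin, NADPH, detoxification and heme metabolism and NRF2 control, 94 were tested in the aging comparison, of which 37 rose (39.4%, beside 13.5% of all genes) and 4 fell (4.26%, beside 12.9%). In the ALS comparison 96 were tested, of which 31 rose (32.3%, beside 18.4% of all genes) and 12 fell (beside 15.5% of all genes). A gene named for one comparison is given in both where it was called in both. Their medians were 0.13 and 0.21 on the log2 scale, beside -0.0027 and 0.0031 for all genes. Without Old library 6, 40 rose and 6 fell. Where only genes with at least 10 counts in every library were tested, 34 rose and 4 fell with age. By that filter 30 rose and 12 fell in G93a. The number in G93a depended on the libraries kept, from 19 rising and 4 falling without G93a library 3 to 39 rising and 16 falling without library 2, and with 20 rising and 7 falling without WT library 2.

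Of 16 genes of glutathione handling, 4 rose (25%, beside 13.5% of all genes) and 1 fell with age. In G93a 3 rose (18.75%, at the 18.4% of all genes) and 4 fell (25%, beside 15.5%). Ggt5, a cleaving enzyme of the gamma-glutamyl transferase family, rose by 1.15 and 2.86 (edgeR adjusted p = 1.29e-05 and 0.00205), and Slc3a2, the heavy chain of the cystine transporter, by 0.18 and 0.62. Slc7a11, the cystine-transporting light chain and a widely used NRF2 target, fell by 0.60 with age (edgeR adjusted p = 0.000182), from 12.1 to 19.1 CPM in Young to 7.74 to 12.4 CPM in Old, and its G93a difference of -0.21 did not pass (edgeR adjusted p = 0.278). Glrx, a glutaredoxin, rose by 0.23 with age (edgeR adjusted p = 0.0063) and fell by 0.37 in G93a (edgeR adjusted p = 0.0313). In G93a, Oplah, which recycles oxoproline to glutamate, rose by 0.75 (edgeR adjusted p = 0.0107). Slc1a1, a neuronal glutamate and cysteine transporter, fell there by 0.53 and Ggt7, another gamma-glutamyl transferase family member, by 0.49.

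Among peroxide-handling relatives, 2 of 4 tested glutathione peroxidases rose in each comparison (50%, beside 13.5% of all genes with age and 18.4% in G93a). Gpx3, the secreted form, rose by 0.84 and 1.21 (edgeR adjusted p = 3.34e-07 and 0.00456), Gpx4, which reduces lipid peroxides, by 0.31 with age (0.12 in G93a, edgeR adjusted p = 0.36), and Gpx8 by 1.45 in G93a. Of 13 other peroxiredoxin and thioredoxin genes 5 rose with age (38.5%, beside 13.5% of all genes) and 1 fell, and 5 rose in G93a (38.5%, beside 18.4%). Prdx6, a peroxiredoxin abundant in astrocytes, rose by 0.62 and 2.23 (edgeR adjusted p = 1.43e-05 and 0.000386), and Txnip, which binds and inhibits thioredoxin, by 0.58 and 1.53. Sesn2, a stress-induced sestrin, rose by 0.26 and 0.46. With age Prdx5, another peroxiredoxin, rose by 0.21 and Sesn3, another sestrin, fell by 0.18, and in G93a Txn1, the cytosolic thioredoxin, rose by 0.38. Of 4 genes of the superoxide dismutases, 1 rose with age (25%, beside 13.5% of all genes). In G93a 1 rose and 1 fell (25% each, beside 18.4% and 15.5%). Sod2, the mitochondrial enzyme, fell by 0.61 in G93a (edgeR adjusted p = 0.0109). The value listed for mouse Sod1 was higher by 0.95 in G93a (edgeR adjusted p = 0.000241), where reads of the human transgene that align to the mouse gene cannot be told apart from mouse transcripts. In old wild type mice Sod1 rose by 0.19 (edgeR adjusted p = 0.00194).

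Of the enzymes that supply NADPH or conjugate electrophiles, none fell with age. Of 8 NADPH enzymes 3 rose with age (37.5%, beside 13.5% of all genes) and 5 in G93a (62.5%, beside 18.4%), with 1 falling there. G6pdx rose by 0.32 and 0.43 and Idh2 by 0.38 and 1.05, and neither had overlapping groups. Pgd, which follows G6pdx in the pentose phosphate pathway, rose by 0.32 and 0.56, and Me1, the cytosolic malic enzyme, by 0.41 in G93a. Of 15 tested glutathione S-transferases 10 rose with age (66.7%, beside 13.5% of all genes) and none fell. In G93a 5 of 16 rose (31.25%, beside 18.4%) and 3 fell (18.75%, beside 15.5%). Gstm1 rose by 0.63 in each comparison (edgeR adjusted p = 1.58e-08 and 0.0126) and Mgst1 by 0.52 and 1.08. Gsto1 rose by 0.38 and 0.85 (edgeR adjusted p = 0.000557 and 0.00311) and Gstp1 by 0.30 and 0.38, while Gstm5 fell by 0.50 in G93a. Mgst3 rose by 0.16 with age (edgeR adjusted p = 0.0194) and fell by 0.73 in G93a (edgeR adjusted p = 0.00514). Close copies within the Gstm and Gstp families can share reads, so their single values are uncertain. Of the other detoxifying enzymes and exporters, 5 of 11 rose with age (45.5%, beside 13.5% of all genes) and 6 of 12 in G93a (50%, beside 18.4%). Among them were Ephx1, an epoxide hydrolase, by 0.82 and 0.92, Abcc3, a conjugate exporter, by 1.49 and 2.36, Abcc4, another exporter, by 0.32 and 0.54, and Akr1b8, an aldo-keto reductase, by 1.02 and 2.53. Cbr3, a carbonyl reductase, rose by 0.81 with age. The 6 in G93a include Osgin1, tested only there, at 0.38 to 1.42 CPM in WT and 2.06 to 3.30 CPM in G93a. It passed the count filter through the G93a libraries, so its call is not read. Abcc3 and Akr1b8 were low in Young, at 0.57 to 2.72 and 0.65 to 1.71 CPM, with fewer than 10 counts in the lowest library. In heme and iron handling 3 of 9 rose with age (33.3%, beside 13.5% of all genes). In G93a 1 rose and 1 fell (11.1% each), under the 18.4% and 15.5% of all genes. Ftl1, the ferritin light chain, rose by 0.99 and 2.05 (edgeR adjusted p = 5.93e-08 and 0.000384) and Fth1, the heavy chain, by 0.44 with age. Blvrb, a biliverdin reductase, rose by 0.63 with age (edgeR adjusted p = 0.000239), while Hmox2, the constitutive heme oxygenase, fell by 0.31 in G93a (edgeR adjusted p = 0.0339).

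**Figure D3:**
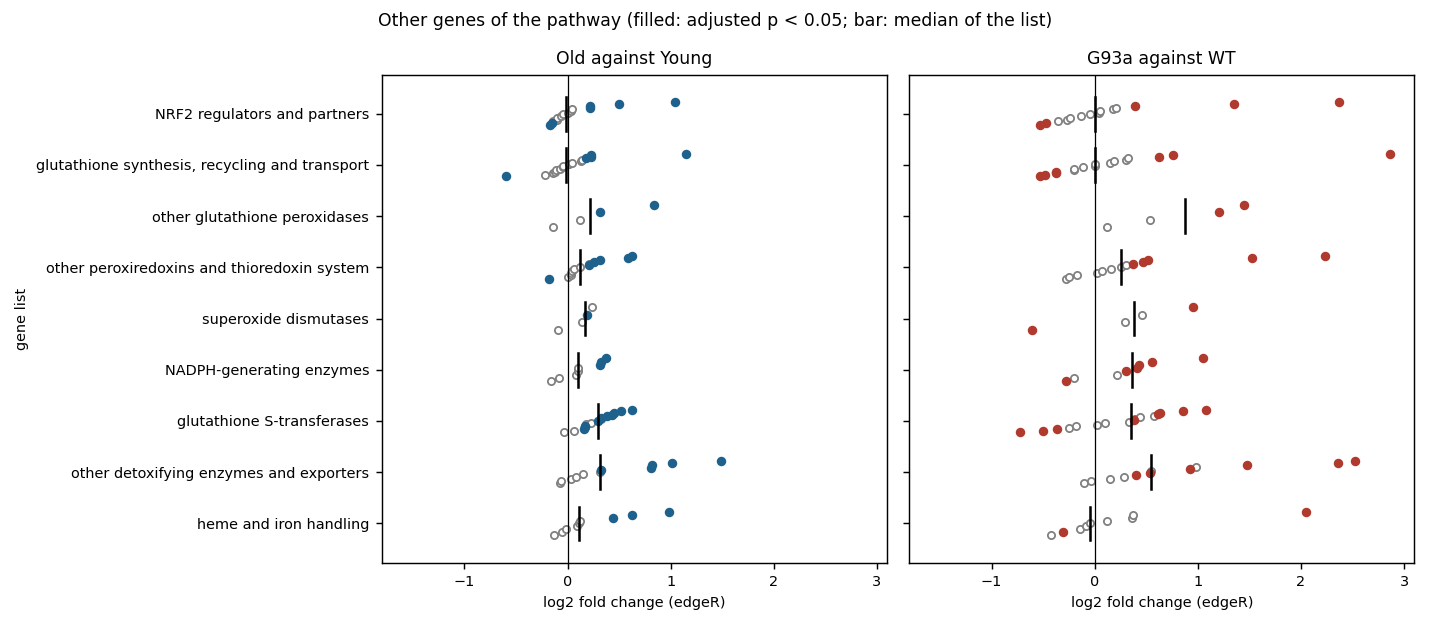
Log2 fold change of every tested gene in each list of related genes, 1 point per gene, for Old against Young and for G93a against WT, with filled points for an adjusted p under 0.05 by edgeR and a bar at the median of the list. The glutathione S-transferases hold 10 rising and 0 falling genes with age, and 5 rising and 3 falling genes in G93a.

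Cell type markers moved with the same groups. The summed level of 9 microglial markers ran from 319 to 359 CPM in Young and 504 to 855 CPM in Old libraries, and from 333 to 400 CPM in WT and 1353 to 2460 CPM in G93a libraries. Of these markers 8 rose with age and 7 in G93a, Trem2 by 2.37 and 3.77. Of all genes tested 13.5% rose and 12.9% fell with age, and 18.4% rose and 15.5% fell in G93a. A single gene called with age in a marker list is near these shares. The 8 astrocyte markers summed to 5936 to 6495 CPM in Young, 6750 to 7547 in Old, 5536 to 6071 in WT and 11132 to 17735 CPM in G93a, with 4 rising and 1 falling with age and 6 rising in G93a. With age the mean of Gfap went from 1843 to 2977 CPM. Slc1a2, Aqp4 and Gja1 had lower means in Old, at 2718, 647 and 354 CPM, from 2866, 686 and 415 CPM in Young. Besides Gfap, the markers that rose with age were Slc1a3, Aldh1l1 and Sox9. The 7 neuronal markers summed to medians of 4302 CPM in Young and 3972 CPM in Old, with 1 rising and 3 falling with age, and to 4408 to 4594 CPM in WT and 2043 to 3501 CPM in G93a, with 5 falling, and the 6 motor neuron markers to 249 to 281 and 136 to 151 CPM, with 4 falling. The G93a library with the lowest microglial and astrocyte sums and the highest neuronal sum was library 2, which was also lowest for Hmox1, Nfe2l2, Nqo1, Gpx1, Prdx1 and Srxn1. Old library 6 had the lowest microglial sum of the Old libraries at 504 CPM (685 to 855 in the others) and the highest neuronal sum at 4920 CPM (3498 to 4158). Of the Old libraries it was lowest for Prdx1, Nqo1 and, narrowly, Gpx1, and highest for Nfe2l2 (43.8 CPM), Gclc (90.7 CPM) and Cat (129.6 CPM). Whether any of the 10 genes followed the marker sums was not tested. The 7 markers of border macrophages and monocytes summed to 1.92 to 3.70 CPM in WT and 8.66 to 17.4 CPM in G93a. Only 3 of them passed the count filter there. Ms4a7 did so through the G93a libraries, at 3.42 to 10.6 CPM against 0 to 0.17 CPM in WT, so the calls of this list were not counted. Oligodendrocyte markers had 1 rising and 2 falling of 7 with age and 0 called in G93a, and endothelial markers 1 falling of 6 with age and 0 called in G93a. Red blood cell markers summed to 306 to 665 CPM in Young, 393 to 1094 in Old, 273 to 379 in WT and 266 to 351 CPM in G93a, with none called.

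**Figure D4:**
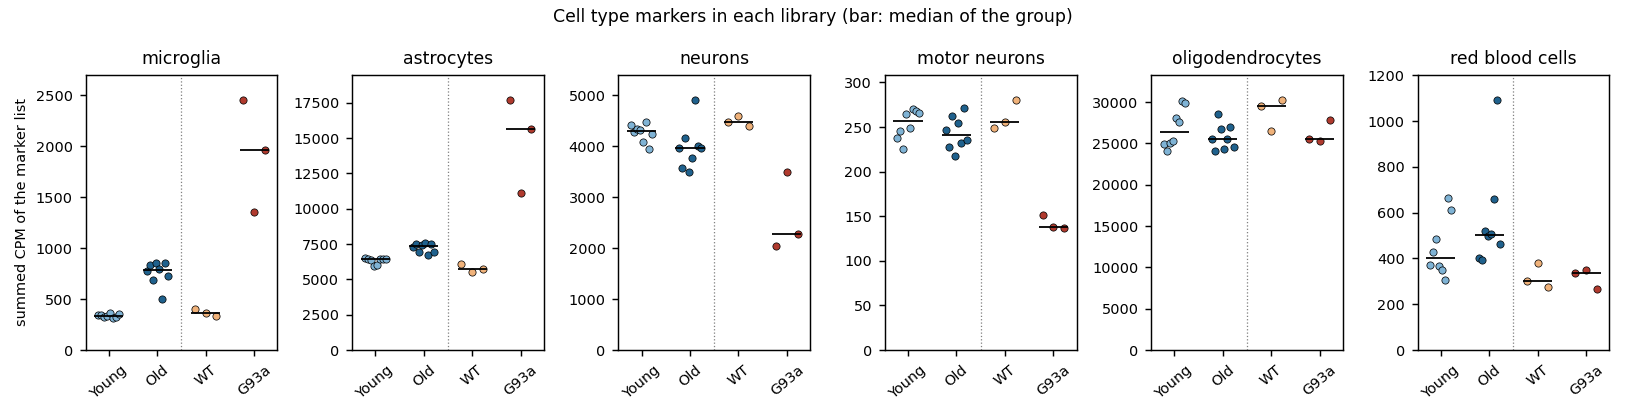
Summed CPM of the marker genes of 6 cell types in every library of the 4 groups, on linear axes from 0, with 1 point per library and a bar at the group median. The microglial and astrocyte sums of the G93a libraries lie above those of all WT libraries, and the neuronal and motor neuron sums below them.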

How the data were processed

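Whole spinal cord RNA was sequenced as bulk libraries. The authors aligned reads to mm10 with STAR and deposited RSEM expected counts per gene, which are whole numbers in the table, and log2 values of FPKM + 1 (per the file headers and labels, with SAMtools 1.3). The counts were rounded to whole numbers, which left them as deposited. FPKM was taken back from the deposited log2 values for levels between genes. Columns were assigned to groups by their names. The libraries carry numbers that are in no label.

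For each comparison separately, genes were kept by filterByExpr (minimum count 10, minimum total 15), scaled by TMM and tested by the quasi-likelihood test of edgeR 4.0.16 in R 4.3.3, and p-values were adjusted by Benjamini-Hochberg across every gene kept. CPM use the TMM-scaled totals. A call is an adjusted p under 0.05. The standard error is the log2 fold change divided by the square root of the F statistic, and intervals are at 95%. Totals per library ranged from 5078092 to 13219797 counts, so the 10 genes were measured well above the floor of 3 counts. Intervals reflect the spread between libraries. No pair of libraries in a group differed by less than sampling noise. Alternatives were DESeq2 1.42.0, RLE factors, other filters, 1 fit of all 22 libraries, limma 3.58.1 on log2(FPKM + 1), and leaving out each library.

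The genes and the lists were chosen with earlier results of these data known, and lists were counted, not tested. Of each related list, at most 4 genes per comparison are named, those with the smallest adjusted p among the genes called. Their value in the other comparison is given where they were called there too. Keap1, Bach1 and Sod1 are given in both, and Cul3 and Osgin1 are named besides. Coordinates are from the GENCODE M21 annotation of GRCm38, and promoter windows from RefSeq. The genes whose pattern most resembled that of Nfe2l2 are not reported here.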

Additional observations from a re-analysis of the deposited data

Results flagged for a closer look

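In groups of 8 libraries, the highest or lowest library was compared with the rest by Dixon's criterion, which chance meets in about 1 of 20 groups. It was met in 10 of 130 groups, 5 of them by Old library 6. Of the 10 genes only Prdx1 in Old was among them, where library 6 had 148 CPM and the others 192 to 221 CPM. The same library was lowest for Ftl1 at 184 CPM (others 295 to 370) and for Sqstm1 at 461 CPM (others 538 to 573). It was highest for G6pdx at 97.6 CPM (others 81.4 to 88.8) and for the sum of neuronal markers at 4920 CPM (others 3498 to 4158). Old library 7 was highest for Maff at 6.25 CPM (others 2.78 to 4.37) and for the sum of red blood cell markers at 1094 CPM (others 393 to 659). In Young mice, library 4 was lowest for G6pdx at 57.4 CPM (others 68.2 to 75.2) and for Glrx at 44.6 CPM (others 49.4 to 52.3), and library 7 was highest for Cbr3 at 3.82 CPM (others 1.55 to 2.60).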

How the results depend on the processing

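No paired analysis was possible because the table's columns carry library numbers that are in no label. In Old against Young, 5 of the 10 genes were called under every leave-one-out fit and under each other setting except limma on log2(FPKM + 1), where Prdx1 was not called (limma adjusted p = 0.0956) and the number past a log2 fold change of 1 went from 1 to 0, as it also did without Young library 1 or Old library 4 or 7 (range 0 to 1). In G93a against WT, leave-one-out fits called 5 to 9 of the 10 genes and put 3 to 4 past a log2 fold change of 1. The difference between the comparisons was called for 2 to 7 genes when a G93a or WT library was left out: 2 without G93a library 1 or 3, and 3 without WT library 2 or 3. With no filter on low counts this difference was called for Gclc, lower in G93a, and no longer for Srxn1. Signs turned only for values near 0. For Old against Young, leave-one-out values ran from -0.040 to 0.0027 for Gclm, -0.0486 to 0.012 for Hmox2 and -0.028 to 0.060 for Ggt7, and Me1 was -0.012 under limma against 0.08. Keap1 ran from -0.00753 to 0.12 in G93a against WT, and the difference for Txnrd1 from -0.0042 to 0.0904. The cause was not tested. With 3 libraries a group, the ALS calls of Srxn1, Cat, Txnrd1 and Gclc depend on single libraries.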
